A study of Mus musculus with 6 samples.

Results

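Itpka, the gene that encodes IP3K-A, a kinase that phosphorylates the calcium-releasing messenger IP3, lies on mouse chromosome 2, and 50 genes on its higher-coordinate side, from Ltk next door to Slc28a2, were listed as a group for their position, with earlier results of these data known. The list leaves out 10 measured genes of the same interval. Of these, 43 had a probe set of their own among the 22180 genes measured, and the brightest such set stood for the gene. Of the other 7, Ganc, Ttbk2, Adal, Tubgcp4, Ell3 and Mfap1a were read only by probe sets that list further genes, and Sord was not measured here. The 43 measured genes fill 43 of the first 53 places after Itpka when measured genes are counted along the chromosome. The next measured genes outside were Rtf1 on the Itpka side, with a log2 change of 0.06, and Bambi-ps1 beyond Slc28a2, with −0.02.

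Amygdala RNA from 3 wild-type (WT) and 3 IP3K-A knockout (KO) pools was read on GeneChip Mouse Gene 2.0 ST arrays. All animals were male, 10 to 15 weeks old and of C57BL/6N background, and the WT mice were littermates of the KO mice. The methods describe 3 independently made sets of pooled tissue with 6 to 8 mice per genotype from 3 litters, and they do not say how the Itpka allele was made. Every KO pool carries that allele together with the stretch of chromosome linked to it, so loss of IP3K-A and any other difference of that stretch cannot be told apart in this design.

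Genes that lie near a targeted gene are inherited with it, since recombination seldom separates close neighbors on a chromosome. They need share no function, and this stretch holds receptor tyrosine kinases, a cluster of cytosolic phospholipases A2, microtubule proteins, transglutaminases, ubiquitin ligases and B2m, the light chain of major histocompatibility complex (MHC) class I. In brain tissue, MHC class I is carried by microglia and blood vessel cells and, at lower levels, by neurons.

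The promoters of 3 genes that come up again below are shown with their motifs, for Pla2g4e and B2m because these had the smallest p-values of the group in each direction, and for Wdr76 because its start lies back to back with that of a neighbor. Wdr76 has 2 windows, of which the first is shown. RefSeq (GRCm38.p6) gave a window of 250 bases before to 50 bases after the start for 49 of the 50 genes. Capitals mark matches, on either strand, to an interferon-response-like motif GAAANNGAA, a kappaB-like motif GGANNNTCC, the CCAAT box CCAAT and a TATA box TATATAA, which were the 4 motifs searched.
Pla2g4e, chr2:120245286-120245585, minus strand: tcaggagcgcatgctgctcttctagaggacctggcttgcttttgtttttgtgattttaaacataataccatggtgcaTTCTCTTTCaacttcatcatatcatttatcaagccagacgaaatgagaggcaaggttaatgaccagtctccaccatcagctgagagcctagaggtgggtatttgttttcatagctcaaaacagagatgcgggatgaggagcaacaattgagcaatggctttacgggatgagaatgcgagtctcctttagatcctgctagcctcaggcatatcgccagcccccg
Wdr76, chr2:121506473-121506772, plus strand: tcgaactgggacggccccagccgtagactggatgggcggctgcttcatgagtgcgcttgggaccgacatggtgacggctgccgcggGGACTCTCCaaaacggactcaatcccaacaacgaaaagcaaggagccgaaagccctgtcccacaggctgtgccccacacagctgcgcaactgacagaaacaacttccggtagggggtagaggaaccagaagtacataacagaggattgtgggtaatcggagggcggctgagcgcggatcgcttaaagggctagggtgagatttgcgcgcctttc
B2m, chr2:122147437-122147736, plus strand: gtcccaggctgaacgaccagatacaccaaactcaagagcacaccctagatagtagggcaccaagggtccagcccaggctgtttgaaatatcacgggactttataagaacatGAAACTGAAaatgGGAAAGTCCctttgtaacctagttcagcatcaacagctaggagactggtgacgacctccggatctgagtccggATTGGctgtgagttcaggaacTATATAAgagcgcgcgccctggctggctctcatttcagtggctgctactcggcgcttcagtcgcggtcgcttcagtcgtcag

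The B2m window held an interferon-response-like match 139 bases before the start, a kappaB-like match next to it, an inverted CCAAT box and a TATA box. Pla2g4e held an inverted interferon-response-like match and Wdr76 a kappaB-like one. The interferon-response-like motif was in 8.56% of all 32851 promoter windows and in 5 of the 57 windows of the 49 genes (B2m, Pla2g4e, Sptbn5, Trp53bp1 and Zfp106). The kappaB-like motif was in 8.62% of all windows and in 9 of these 57. Their genes were B2m, Ctdspl2, Frmd5, Haus2, Map1a, Mfap1a, Stard9, Tmem87a and Wdr76. The TATA box was in 3.24% of all windows and in 1 of the 57, that of B2m. The CCAAT box was in 37.4% of all windows and in 19 of the 57, which belong to 18 of the 49 genes. None of the 4 motifs overlaps another in the windows shown. A match describes letters and not a site in use.

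Itpka checked the labels. Its log2 intensity was 8.85, 8.90 and 8.96 in the WT pools and 6.76, 6.95 and 6.96 in the KO pools. All KO pools lay below all WT pools (log2 change −2.02, SE 0.08, adjusted p = 0.000261 from limma, but 0.242 by the Student's test), and where the probes lie relative to the deleted part is not given in the sources used here. The 6 arrays had nearly equal medians of the probe sets tested, from 6.93 to 6.96, and correlated at 0.993 to 0.996 across probe sets. Neuron markers (Rbfox3, Snap25, Syt1 and others, 8 of 8 measured) were bright in every pool, at a mean log2 level of 11.59 to 11.64, and the markers of excitatory and of GABAergic amygdala neurons (8 of 9 and 10 of 10 measured) lay at 9.72 to 9.89 and 8.79 to 8.93. Astrocyte markers (7 of 7) lay at 9.82 to 9.94. Other marker lists moved between pools. Striatal projection neuron markers (9 of 12 measured) lay at 9.19 to 9.68 in WT and 9.08 to 9.54 in KO, oligodendrocyte markers (7 of 8) at 9.56 to 9.65 and 9.17 to 9.62, and choroid plexus markers (7 of 8) at 6.82 to 6.98 and 6.92 to 8.34, the last highest in KO 1. In tissue of mixed cells, fewer cells of a type and less RNA per cell cannot be told apart.

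Differences between KO and WT were frequent among the genes distal to Itpka, small in size and in both directions. Pla2g4e, Wdr76, Zfp106, Tyro3, Tmem87a and Ubr1 lay higher in KO. So did the very dim own probe set of Spg11, whose brighter shared set lay on the other side of 0. B2m, Serf2, Tgm7, Slc28a2 and Haus2 lay lower, as did the own probe sets of Lcmt2 and Cdan1. Brighter sets shared with Adal (for Lcmt2) and Ttbk2 (for Cdan1) lay above 0, and both genes are counted here by their own sets. In 15 of the 43 genes (34.9%) all 3 KO values lay on one side of all 3 WT values, here called no overlap, against 13.7% of all genes measured. Of these, 10 were higher in KO (7.54% of all genes were) and 5 lower (6.16% of all genes), and Spg11 is counted among the higher ones in each count here. An unadjusted limma p under 0.05 was found for 14 of the 43 (32.6%) against 6.52% of all genes, 7 higher and 7 lower, where all genes gave 3.16% and 3.36%. The thresholds that the methods name, a fold change over 1.2 at p under 0.1, were passed by 5 of the 43 (11.6%) by limma against 3.01% of all genes. The 3 higher were Pla2g4e, Wdr76 and Zfp106 (1.24% of all genes), and the 2 lower were Lcmt2 and B2m (1.77% of all genes). A plain Student's test, also taken from the methods, gave 5 of the 43, again 3 higher and 2 lower, against 1.82% of all genes. None of the 43 passed an adjusted p under 0.05 by limma over all 23521 probe sets, which 0.00902% of all genes did, and none did by the Student's test.

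The median log2 change of the 43 genes was 0.02 against −0.0002 for all genes, and 24 were above 0 and 19 below. The middle range, from the lower to the upper quartile, ran from −0.09 to 0.11 for these genes and from −0.07 to 0.07 for all. The median size of the change, without its sign, was 0.094 against 0.068. The standard error of a single gene's log2 change had a median of 0.069 in the group and 0.079 over all genes. The group was brighter than the array at large, with a median log2 level of 8.03 against 7.01, and 27 of the 43 lay above the level of the median gene. Among probe sets above the median level the share without overlap was 12 of 28 genes of the group, where 16.2% of all genes had none. At that level 11 of the 28 had p under 0.05 (8.70% of all genes) and 4 passed the methods' thresholds (1.08% of all genes). Leaving out 1 pool moved some counts past the methods' thresholds by over 1.5 times. Without WT 1, 8 genes passed (4.16% of all genes did), 4 of them lower (2.61% of all genes). Without KO 1, 4 were lower (1.84% of all genes), and without KO 3, 5 were higher (1.74% of all genes). Without WT 3, 4 rather than 7 genes had a lower value at p under 0.05 (3.64% of all genes).

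**Figure D1:**
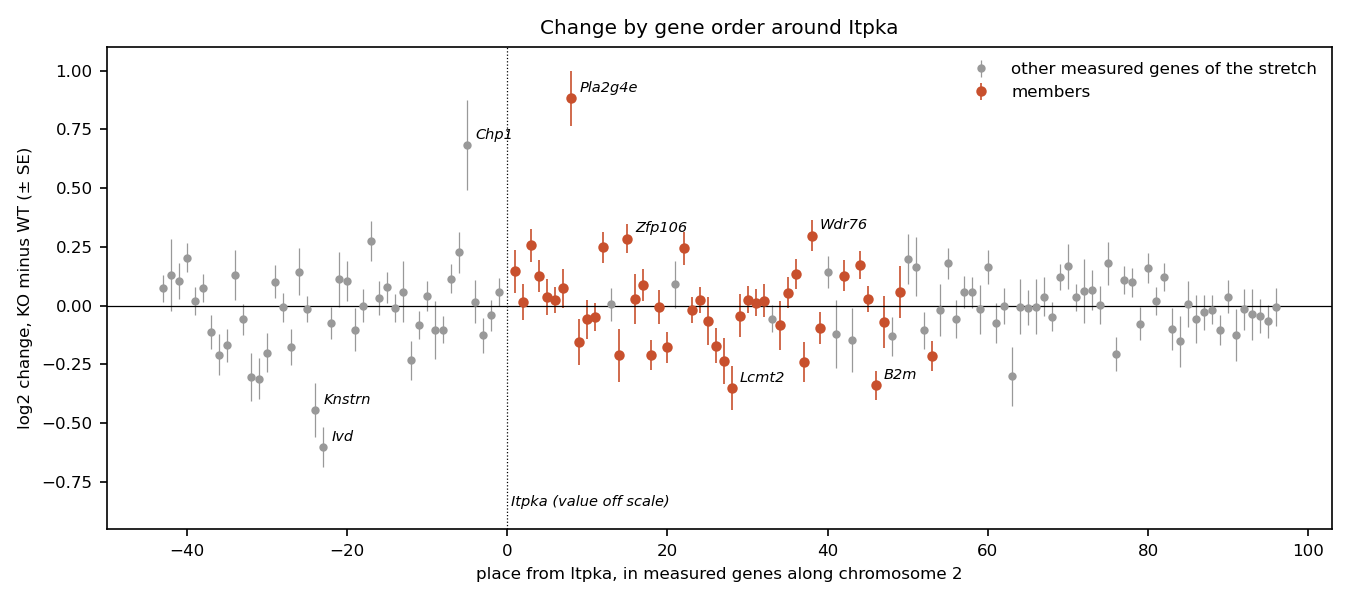
Log2 change (KO minus WT, with standard error) of measured genes by their place from Itpka along chromosome 2, counted in genes; red points are the 43 genes of the group and gray points are the 43 genes before Itpka, the 10 other measured genes within the stretch and the 43 beyond it. Pla2g4e stands highest at 0.88, while all other red points lie between −0.35 and 0.30.

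Counts without overlap differed between parts of the stretch, where 13.7% of all genes had none, and no test between the parts was made. In the first 10 genes of the group, Ltk to Pla2g4f, the pools did not overlap in 3, all higher in KO. In the next 10, Vps39 to Ubr1, this was so for 5 genes, 3 higher and 2 lower (Haus2 and Cdan1), and in the 10 from Tmem62 to Ppip5k1 for Lcmt2 alone. In the 10 from Strc to B2m it was again 5, of which 4, Spg11 included, were higher, and of the last 3 genes it was Slc28a2.

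An equal number of measured genes on the other side of Itpka gave similar shares, with 17 of 43 (39.5%) without overlap, 12 (27.9%) at an unadjusted p under 0.05 and 6 (14%) past the thresholds of the methods. There, 11 of the 17 were lower in KO. Of the 15 distal ones 5 were lower, where 6.16% of all genes were. With a pool left out the totals rose too, in the group and among all genes. The lower ones were 8 of 20 without WT 1 (12.0% of all genes) and 8 of 18 without WT 2 (10.8%). They were 9 of 21 without KO 1 (10.2%) and 8 of 18 after repeated quantile normalization (6.38%). The 43 measured genes beyond Slc28a2 had 11 (25.6%) without overlap, 4 (9.30%) at p under 0.05 and 1 (2.33%) past the thresholds. On the rest of chromosome 2, 13.7% of 1724 genes had no overlap and 6.73% had p under 0.05, close to the shares of the other chromosomes (13.6% and 6.39%). No test between these stretches was made. The group leaves out 10 measured genes that lie within it, such as Ckmt1, Golm2, Eif3j1 and Duox1. Of these 10, the pools did not overlap in 1 (Golm2, log2 change 0.14, SE 0.07) and 0 had p under 0.05. Over all 53 measured genes of the interval the shares were therefore lower, at 16 (30.2%) and 14 (26.4%).

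**Figure D2:**
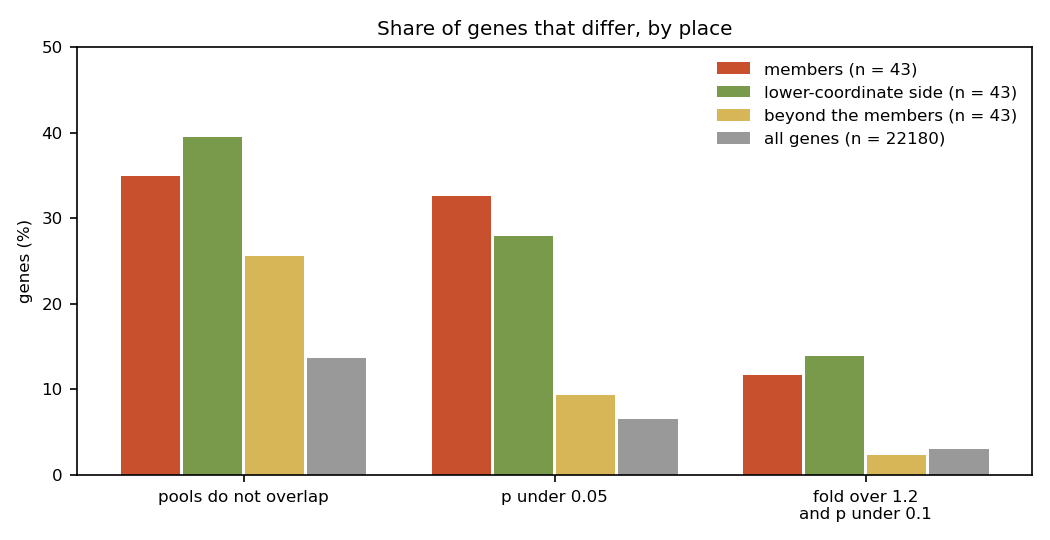
Percent of genes whose WT and KO pools did not overlap, with an unadjusted limma p under 0.05, and past a fold change of 1.2 at p under 0.1. Bars stand for the 43 genes distal to Itpka, 43 on its other side, 43 beyond the group and all 22180 genes; the first 2 stretches stand above the all-gene bars of 13.7%, 6.52% and 3.01% in every class.

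**Figure D3:**
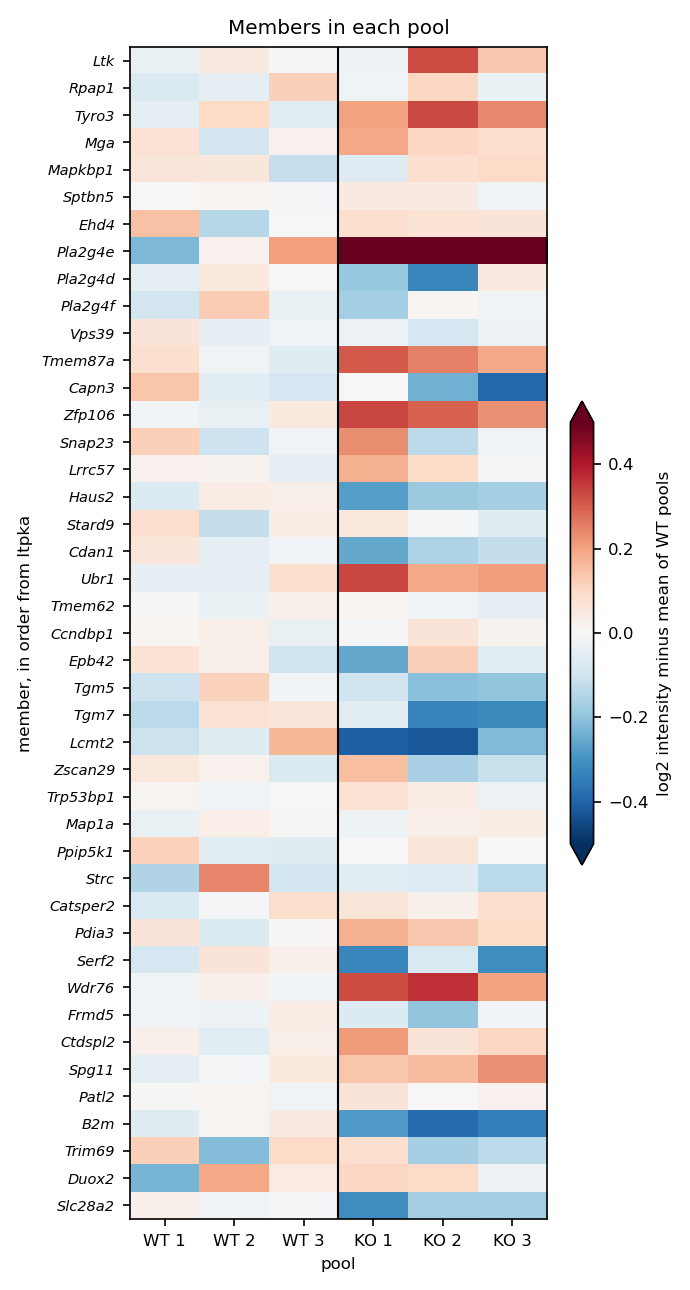
Log2 intensity of each of the 43 genes in each pool, minus the mean of the WT pools, in order of place from Itpka; colors are cut at 0.5 and −0.5. KO columns are red throughout for Pla2g4e, Tmem87a, Zfp106, Ubr1 and Wdr76 and blue throughout for Haus2, Cdan1, Lcmt2, B2m and Slc28a2.

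The largest difference was that of Pla2g4e, a cytosolic phospholipase A2 family member that acts as a calcium-dependent N-acyltransferase and makes precursors of N-acylethanolamines such as the endocannabinoid anandamide. Its log2 intensity was 7.88, 8.12 and 8.30 in the WT pools and 8.90, 8.93 and 9.11 in the KO pools. The lowest KO pool was above the highest WT pool by more than the range of either group. The log2 change was 0.88 (SE 0.12, 95% confidence interval 0.61 to 1.15), which ranked 5th by p among all genes and missed the adjusted test (adjusted p = 0.272 from limma; two-sided exact permutation p = 0.1, the smallest that 3 against 3 allow). With an intensity trend and robust estimation it passed (adjusted p = 0.0114), and over all its alternatives the adjusted p ran from 0.0114 to 0.756. Its cluster neighbors did not share this direction. Pla2g4d was 5.73, 5.83 and 5.78 in WT and 5.59, 5.45 and 5.82 in KO, with overlap and a log2 change of −0.16 (95% confidence interval −0.38 to 0.07). Pla2g4f had −0.06 (95% confidence interval −0.25 to 0.13). Of the 5 cytosolic phospholipases A2 measured on probe sets of their own, only Pla2g4e had p under 0.05 (20%, against 6.52% of all genes). Pla2g4a, the widely expressed calcium-dependent enzyme that releases arachidonic acid, had a log2 change of 0.01 (95% confidence interval −0.19 to 0.21).

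B2m was the brightest gene of the group and the lower gene with the smallest p. It encodes beta-2-microglobulin, which MHC class I heavy chains need in order to fold and reach the cell surface. Its log2 intensity was 11.83, 11.90 and 11.94 in the WT pools and 11.61, 11.50 and 11.54 in the KO pools, so that the gap between the groups was wider than the spread within either. The log2 change was −0.34 (SE 0.06, 95% confidence interval −0.48 to −0.19), or 1.26-fold lower in KO (adjusted p = 0.584 from limma, and 0.0248 to 0.954 over its alternatives, the lowest with an intensity trend and robust estimation).

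The list of MHC class I presentation genes drawn up beside B2m did not share its difference as a whole. Of 21 measured, 12 were above 0 and 9 below, with a median log2 change of 0.004. The 2 with p under 0.05 (9.52%, against 6.52% of all genes) were both lower: H2-Q4, a class I heavy chain gene outside the classical set, at −0.21 (SE 0.07), and Psmb10, a catalytic subunit of the immunoproteasome, at −0.19 (SE 0.07). H2-K1, a classical heavy chain gene, was 7.70, 7.72 and 7.58 in WT and 7.45, 7.35 and 7.72 in KO, with overlap. Its log2 change was −0.16 (SE 0.10). H2-T23 had −0.15 (SE 0.07) and H2-M3 −0.04 (SE 0.07), both with overlap. Every measured H2 gene of the list thus lay below 0, while the 12 genes above 0 were other genes of the list. Pdia3, itself one of the distal genes, encodes an oxidoreductase of the endoplasmic reticulum that takes part in loading class I with peptide. It was 10.98, 10.85 and 10.92 in WT and 11.10, 11.05 and 11.01 in KO, higher in each KO pool by a log2 change of 0.13 (SE 0.06), opposite to B2m. Markers of microglia (10 of 11 measured) lay at 8.14 to 8.22 in WT and 8.09 to 8.17 in KO, and markers of endothelial and mural cells (10 of 10) at 8.29 to 8.33 and 8.30 to 8.40, with overlap of the list means in both. Of the microglial markers 4 were above 0 and 6 below. Of them 1 had p under 0.05 (10%, against 6.52% of all genes), the complement gene C1qb at −0.33 (SE 0.11). The microglial markers without overlap were 2 (20%, against 13.7% of all genes), C1qb and C1qa, the latter at −0.12 (SE 0.06), both lower. Of the endothelial and mural markers 4 were above 0 and 6 below. The 3 with p under 0.05 (30%, against 6.52% of all genes), Tek, Rgs5 and Cdh5, were higher in KO, by 0.17, 0.19 and 0.16. All 4 that were above 0 did not overlap (40% of the list, against 13.7% of all genes). Among the 6 below 0 were Cldn5 at −0.21, Vtn at −0.12 and Pecam1 at −0.10, with overlap. Blood cell markers (4 of 8 measured) lay at 5.53 to 5.61 in WT and 5.32 to 5.35 in KO. The neutrophil gene Ly6g, with low mean log2 levels of 5.05 in WT and 4.41 in KO, had a log2 change of −0.64 (SE 0.11). Ptprc, S100a8 and S100a9 had −0.06, −0.10 and −0.10, each with overlap, so the difference of the list rests mostly on Ly6g. The part of these cells in the B2m result was not tested.

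Of the receptor tyrosine kinases, Tyro3, a receptor for Gas6 and protein S that neurons express, lay at 7.82, 7.96 and 7.80 in WT and 8.06, 8.19 and 8.10 in KO. No KO pool reached down to a WT pool, and the log2 change was 0.26 (SE 0.07, 95% confidence interval 0.09 to 0.42). Ltk, a receptor related to Alk and the gene next to Itpka, was 7.56, 7.65 and 7.59 in WT and 7.57, 7.93 and 7.74 in KO. The groups overlapped through KO 1 alone, and the log2 change was 0.15 (95% confidence interval −0.07 to 0.36).

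**Figure D4:**
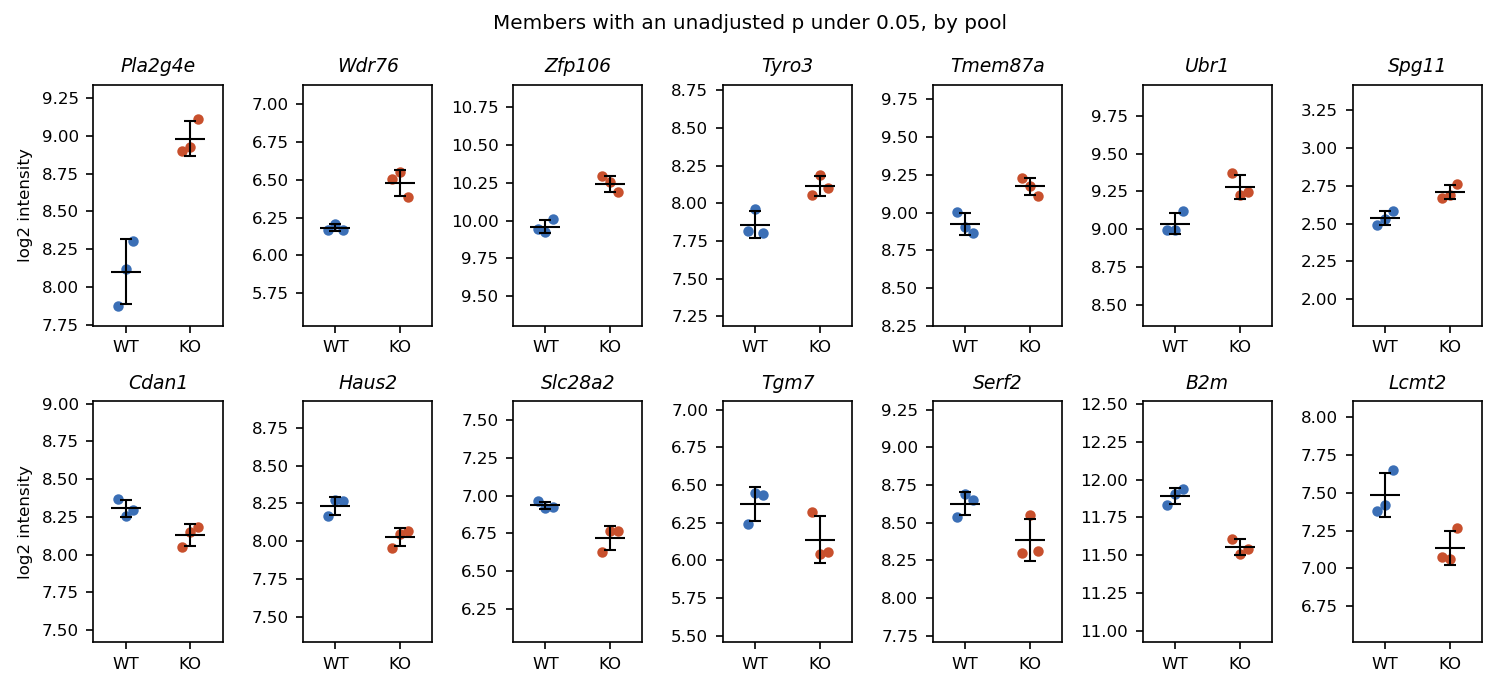
Log2 intensity of the 14 genes with an unadjusted limma p under 0.05, with a point per pool, WT in blue and KO in red, and the mean with SD in black; every panel spans 1.6 log2 units around its own mean. Tgm7 and Serf2 are the 2 whose groups overlap.

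Among 6 measured genes of transcription and RNA, 1 had p under 0.05 (16.7%, against 6.52% of all genes). That was Zfp106, a zinc finger protein that binds RNA and whose loss in mice leads to motor neuron degeneration. It was 9.95, 9.92 and 10.01 in WT and 10.29, 10.25 and 10.19 in KO, a log2 change of 0.29 (SE 0.06, adjusted p = 0.7 from limma). A second, dimmer probe set of Zfp106 gave 0.01 (SE 0.07), and the mean of both sets gave 0.15, so that the difference rests on the brighter one. Mga, a partner of Max among the basic helix-loop-helix factors, and Ctdspl2, a phosphatase-like gene, were higher in every KO pool, each by a log2 change of 0.13 (SE 0.07 for both). Mga lay at 9.37, 9.20 and 9.31 in WT and 9.49, 9.40 and 9.38 in KO, with the groups nearly touching. Rpap1, a partner of RNA polymerase II, was 0.02 (95% confidence interval −0.16 to 0.19), Patl2, an RNA-binding protein of oocytes, 0.03 and Zscan29, a zinc finger gene, −0.04.

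Of the genes of membrane traffic, Tmem87a, a Golgi membrane protein, was 9.0, 8.91 and 8.87 in WT and 9.23, 9.18 and 9.11 in KO, a log2 change of 0.25 (SE 0.07, adjusted p = 0.728 from limma) with no overlap. Ehd4 of endocytic recycling was 0.07, the SNARE gene Snap23 0.03 and Vps39, a subunit of the complex that tethers late endosomes to lysosomes, −0.05, all with overlap. Spg11, whose human form is a gene of hereditary spastic paraplegia, was read by a very dim set of its own at 2.49 to 2.59 in WT and 2.67 to 2.76 in KO, a log2 change of 0.17. A brighter set that lists Spg11 beside Gm3650 gave −0.07 (SE 0.08) at 7.31 to 7.57 with overlap, so no direction is given for Spg11.

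Cytoskeletal genes had log2 changes between −0.09 and 0.02 apart from Haus2. Haus2, a subunit of the augmin complex that branches spindle microtubules, was 8.17, 8.27 and 8.26 in WT and 7.96, 8.05 and 8.07 in KO. Every KO pool was lower, by a log2 change of −0.21 (SE 0.06). Map1a, a microtubule-associated protein abundant in neurons, lay at 10.52 to 10.59 in WT and 10.54 to 10.60 in KO, a log2 change of 0.01 with a 95% confidence interval of −0.12 to 0.15. The kinesin gene Stard9 gave −0.01 on its brighter and 0.04 on its dimmer set, both with overlap. The spectrin gene Sptbn5 was 0.02, Frmd5 −0.09 and Epb42, a membrane skeleton gene of red cells, −0.06.

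Of the enzymes, Lcmt2, which completes a modified base next to the anticodon of phenylalanine tRNA, had the largest lower value of the group. It was 7.38, 7.42 and 7.65 in WT and 7.08, 7.06 and 7.26 in KO, a log2 change of −0.35 (SE 0.09, adjusted p = 0.728 from limma) with no overlap. The probe set that lists Lcmt2 together with its neighbor Adal, an adenosine deaminase-like gene, went the other way without overlap, at 7.70, 7.55 and 7.52 in WT and 7.88, 7.74 and 7.91 in KO (log2 change 0.25, SE 0.08). The arrays do not tell which of the 2 genes this set followed. The transglutaminases Tgm5 and Tgm7, which crosslink proteins and are known mainly from epithelia, were both below 0. Tgm7 was 6.24, 6.45 and 6.43 in WT and 6.32, 6.04 and 6.05 in KO (log2 change −0.24, SE 0.10), with overlap through KO 1 and WT 1, and Tgm5 had −0.17 (SE 0.07), also with overlap. Ppip5k1, which makes inositol pyrophosphates and so acts in the wider pathway of the deleted kinase, had a log2 change of 0.02 (95% confidence interval −0.14 to 0.18). Duox2, an oxidase that makes hydrogen peroxide, had 0.06 (95% confidence interval −0.20 to 0.31).

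Ubr1, a ubiquitin ligase that reads the ends of proteins marked for breakdown, was 9.0, 9.0 and 9.12 in WT and 9.37, 9.23 and 9.25 in KO. The log2 change was 0.24 (SE 0.07) with no overlap. Capn3, a calpain best known from muscle, had −0.21 (SE 0.11) and Trim69, another ubiquitin ligase, −0.07 (SE 0.11), both with overlap. A dimmer set that lists Capn3 beside Ganc gave 0.13 (SE 0.14), also with overlap. Among DNA damage and cell cycle genes, Wdr76, a nuclear WD repeat protein, was 6.17, 6.21 and 6.17 in WT and 6.51, 6.55 and 6.39 in KO. The KO pools stood clear of a tight WT group, with a log2 change of 0.30 (SE 0.06, adjusted p = 0.7 from limma). Cdan1, which binds the histone chaperone Asf1, was 8.37, 8.26 and 8.29 in WT and 8.05, 8.15 and 8.19 in KO (log2 change −0.18, SE 0.07). A brighter set that lists Cdan1 beside the kinase gene Ttbk2 gave 0.07 (SE 0.06) with overlap. Trp53bp1, a mediator of DNA break repair, and Ccndbp1 were 0.03 and 0.02, with 95% confidence intervals that end at 0.16 at the most.

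The last gene of the group, Slc28a2, a sodium-coupled nucleoside transporter, was 6.96, 6.92 and 6.92 in WT and 6.63, 6.77 and 6.76 in KO, lower in every KO pool (log2 change −0.22, SE 0.06). Strc of the inner ear and the sperm channel gene Catsper2 gave −0.08 and 0.06 with overlap. Serf2, a small protein that binds forming amyloid, was 8.54, 8.69 and 8.65 in WT and 8.30, 8.55 and 8.31 in KO. The groups overlapped through KO 2, just above WT 1 (log2 change −0.24, SE 0.09). Lrrc57 had 0.09, Tmem62 −0.02 and the scaffold gene Mapkbp1, which binds the kinase JNK, 0.04 on its brighter and −0.08 on its dimmer set, all with overlap.

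Some neighbors start back to back, and their values can be set side by side. The promoter windows of 4 pairs of the 50 genes overlap on opposite strands: Catsper2 with Pdia3, Haus2 with Lrrc57, Mfap1a with Wdr76 and Tubgcp4 with Zscan29. In the first, Catsper2 was 0.06 and Pdia3 0.13, and in the second Haus2 was −0.21 and Lrrc57 0.09. Wdr76, at 0.30, shares 166 bases of its window with Mfap1a, a splicing factor gene with a near-identical copy, Mfap1b. Of the 2 probe sets that list both copies, the dimmer was 6.25, 6.30 and 6.32 in WT and 6.60, 6.62 and 6.47 in KO (log2 change 0.27, SE 0.06). The brighter one was 7.0, 7.56 and 7.27 in WT and 7.17, 7.08 and 7.05 in KO, with a log2 change of −0.18 (SE 0.13) and overlap. On the 2 strands, the pools did not overlap for 8 of 17 genes read along the plus strand and 7 of 25 along the minus strand, with Vps39 not placed. Of all genes, 13.7% had no overlap, a share that was not split by strand. No test between the strands was made.

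**Figure D5:**
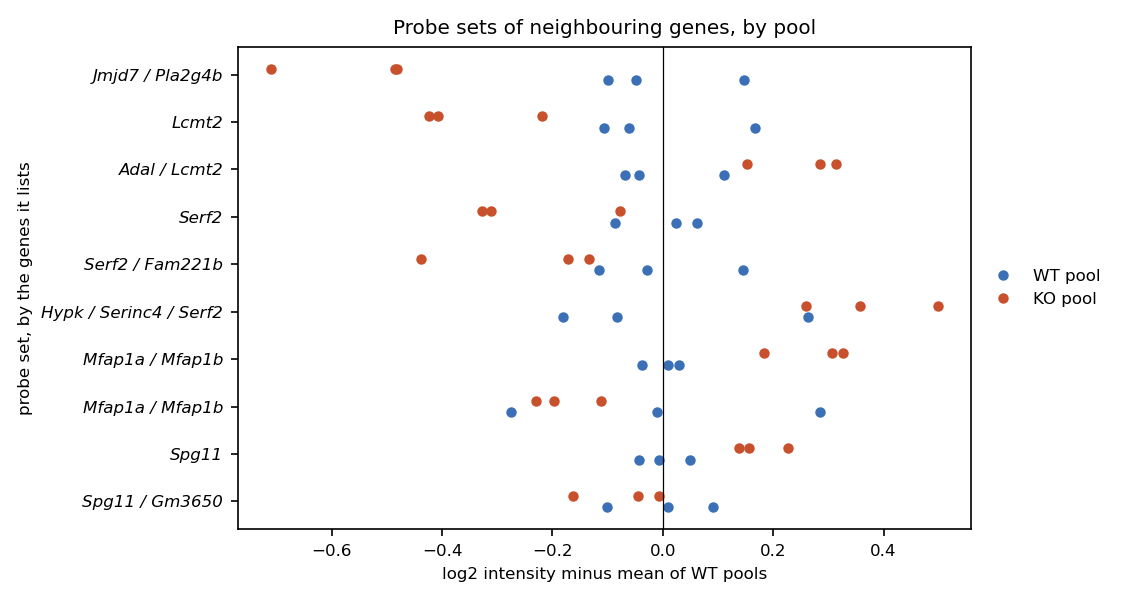
Log2 intensity minus the mean of the WT pools for probe sets of neighboring genes, with a point per pool, WT in blue and KO in red; rows name the genes a set lists. Sets that share a gene lie on opposite sides of 0 for Lcmt2 (−0.35 alone, 0.25 with Adal), Serf2 (−0.24 alone, 0.37 with Hypk and Serinc4) and Mfap1a (0.27 and −0.18).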

How the data were processed

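The deposited table holds log2 intensity values of 41345 probe sets on 6 arrays, made by the authors with GCOS and RMA (versions not given in the sources used here), which corrects background, brings the arrays to 1 distribution and combines probes into sets. That the scale is log2 follows from its range of 1.57 to 13.78. No genome build is given in the sources used here. For arrays, their number limits the precision.

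The difference KO minus WT came from limma 3.58.1 (R 4.3.3; lmFit, then eBayes), with genotype as the only term, over the 23521 probe sets to which the platform annotation gives 1 symbol, and p-values were adjusted over all of these by the Benjamini-Hochberg method. The 1820 sets with several symbols and the 16004 with none stayed out. Fold changes are KO over WT. The brightest set (highest mean of 6 arrays) stood for a gene. The fits were tested on simulated data. Order along chromosome 2 came from the RefSeq gene table (GRCm38.p6). The genes of the group and the lists were chosen with earlier results of these data known. Pool values are given for genes at an unadjusted p under 0.05 or past fold 1.2 at p under 0.1, and for others as named beside them, chosen after values were seen. Alternatives were the Student's test of the methods, trend and robust estimation, centering, repeated quantile normalization, a level filter, all probe sets, a replicate block, array weights, probe set means and each pool left out; probe sets shared between genes and all genes of the interval were added after seeing the data. Figures were drawn with matplotlib 3.10.9.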

Additional observations from a re-analysis of the deposited data

How the results depend on the processing

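No gene of the group passed the adjusted test in any fit but 2. With an intensity trend and robust estimation 2 passed (Pla2g4e and B2m), where 0.0316% of all genes did. With shared probe sets allowed 1 passed (Pla2g4e), where 0.0225% of all genes did. The median log2 change of 0.02 was 0.0029 after repeated quantile normalization, and 0.0052 to 0.027 with a pool left out. With each pool left out, 6 to 8 genes passed the thresholds of the methods (5 with all pools). Of all genes, 3.24% to 4.59% then did (3.01% with all pools). In these fits 11 to 15 genes had p under 0.05 (14), against 4.9955% to 6.587% of all genes (6.52%). Pools did not overlap for 17 to 21 genes (15), against 21.4% to 25.4% of all genes (13.7%), since fewer pools overlap less often. With shared probe sets allowed, Cdan1 turned to 0.0673, Lcmt2 to 0.25 and Spg11 to −0.0715; no other direction of the 14 genes turned in any alternative. With those sets, 3 rather than 5 genes were lower without overlap (6.15% of all genes). Past the thresholds of the methods 1 rather than 2 was lower (1.76% of all genes). Itpka missed the adjusted Student's test (adjusted p = 0.242). Same-numbered pools did not vary together (correlations of −0.03, 0.09 and −0.01), and only WT 2 correlated best with its own number. With the replicate block 5 genes passed the thresholds of the methods (3.07% of all genes). In that fit 13 had p under 0.05 (6.60% of all genes) and 0 passed the adjusted test (0.00451% of all genes).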

Other observations

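Between Mapkbp1 and Sptbn5 lie Jmjd7 and Pla2g4b, neighbors that are read only by 2 probe sets that list both, so they are not among the 43 genes. Pla2g4b is another cytosolic phospholipase A2, and Jmjd7 a hydroxylase gene. The brighter set was 7.20, 7.25 and 7.45 in WT and 6.82, 6.82 and 6.59 in KO, a log2 change of −0.56 (SE 0.09, or 1.47-fold lower). The dimmer set was 5.91, 6.05 and 5.93 in WT and 5.64, 5.53 and 5.38 in KO, a log2 change of −0.45 (SE 0.08). The KO values lay wholly below the WT values in both sets, on the opposite side from Pla2g4e a few genes further on. Neither passed the adjusted test when shared sets were fitted with the rest (adjusted p = 0.127 and 0.177 from limma).

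Hypk, a partner of huntingtin that lies beside Serf2, appears only on shared sets: with Serf2 at a log2 change of 0.12 (SE 0.09), and with Serinc4 and Serf2 at 0.37 (SE 0.12), both with overlapping pools. Serf2 with Fam221b gave −0.25 (SE 0.10) without overlap, close to the −0.24 of Serf2 alone. Past the end of the group, Slc28a2b was higher in every KO pool by a log2 change of 0.18 (SE 0.06), at a low log2 level of 5.14, where its neighbor Slc28a2 was lower by −0.22.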
